A study of Mus musculus with 6 samples.

Results

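The 81 genes described here encode the proteins of the cytosolic ribosome. They were taken by name from the 26776 genes of the deposited table: every symbol made of Rpl or Rps and a number, with an optional a, l, x or y, together with Rplp0, Rplp1, Rplp2 and Rpsa. Of these, 30 belong to the small (40S) subunit and 46 to the large (60S) subunit. The other 5, Rpl3l, Rpl6l, Rpl32l, Rps4l and Rps27l, have names ending in l and are described apart as paralogues. The genes were read in bone marrow long-term haematopoietic stem cells, abbreviated LT-HSCs and known as the cells that sustain blood formation, of Trim47+/eGFP mice. All samples share that genotype, in which a single Trim47 allele carries an enhanced green fluorescent protein (eGFP) reporter by its name, so the reporter and any effect of it on Trim47 are present in both groups. The groups are LT-HSCs with high reporter fluorescence (eGFPhi) and with low fluorescence (eGFPlo), with 3 libraries each. No treatment is recorded beyond the isolation of the cells. The sources used here give neither the sorting gate nor the age or number of the mice. They also do not say that the libraries of a group came from different mice, so a p-value covers no more than the spread between these 6 libraries.

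A ribosome is built from a small subunit, which reads the mRNA, and a large subunit, which joins the amino acids, and each carries a set of proteins that are mostly present in a single copy per particle. Ribosomal protein mRNAs begin with a tract of pyrimidines (the 5′ terminal oligopyrimidine, or TOP, motif) through which the kinase mTORC1 adjusts their translation, so their mRNA level and their translation can differ. In haematopoietic stem cells the rate of protein synthesis is known to be low and tightly held, and in humans the loss of a single ribosomal protein gene can cause bone marrow failure, as in Diamond-Blackfan anaemia. Mammalian genomes also hold many processed pseudogenes of these genes, that is, copies of their spliced mRNAs inserted elsewhere in the genome.

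Those copies bear on the values of most of these genes, and the coding sequences make this visible. The first 120 bases of the Rpl9 coding sequence are shown with those of Rpl9-ps6, a copy on chromosome 19 that is annotated as protein coding. They are followed by Rps27 of chromosome 3, its copy Rps27rt of chromosome 9 and the true paralogue Rps27l, also of chromosome 9. Capitals mark bases that differ from the gene named in the first line of each set. The sequences come from the GENCODE M21 transcripts.

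Rpl9: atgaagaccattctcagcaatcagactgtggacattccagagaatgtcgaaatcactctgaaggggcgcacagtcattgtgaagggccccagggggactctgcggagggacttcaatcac

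Rpl9-ps6: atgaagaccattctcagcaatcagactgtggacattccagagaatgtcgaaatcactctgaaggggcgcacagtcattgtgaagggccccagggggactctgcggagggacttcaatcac

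Rps27: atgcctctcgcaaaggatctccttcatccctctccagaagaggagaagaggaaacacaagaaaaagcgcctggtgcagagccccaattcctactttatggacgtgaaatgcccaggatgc

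Rps27rt: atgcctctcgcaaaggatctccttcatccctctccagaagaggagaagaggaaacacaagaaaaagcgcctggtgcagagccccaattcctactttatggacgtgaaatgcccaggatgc

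Rps27l: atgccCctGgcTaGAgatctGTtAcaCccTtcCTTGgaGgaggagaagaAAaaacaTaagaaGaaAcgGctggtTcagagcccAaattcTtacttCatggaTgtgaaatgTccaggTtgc

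Rpl9-ps6 differed from Rpl9 at 0 of the 120 bases shown and was 99.8% identical over the 579 coding bases. Rps27rt was 100% identical to Rps27 over the 255 coding bases, whereas Rps27l differed at 28 of the 120 bases shown and was 76.3% identical over 253 aligned bases. A read that lies within an identical stretch cannot be told apart by its sequence. How the authors' counting treated such reads is not stated in the labels or the table.

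Across the 76 genes that are not paralogues, 72 had at least 1 such copy among the other genes of the table. A copy is defined as a gene outside the 81, at another locus, that matched at least 80% of the coding sequence at 90% identity or more. Rpl6l and Rpl32l match Rpl6 and Rpl32 to that degree but belong to the 81, so their reads are not counted as copies. There were 849 copies, of which 837 are annotated as pseudogenes and 12 as protein coding, with a median of 8 per gene and 72 for Rpl21. Rpl8, Rplp2 and Rps3 were among those with 0. Over the 6 libraries, 1794252 reads were counted on the 81 genes and 3036418 on the copies, 62.9% of the sum. For the median gene 75.6% of the reads lay on copies, and for 53 of 76 genes more than 50% did. Rps23, which lies in the decoding centre of the small subunit, was the extreme, with 98.9% on copies, most of them on Rps23-ps1, which is 100% identical over 98.4% of the coding sequence. Rpl4, which lines the exit tunnel of the large subunit, had 2.97%. Levels counted on the gene itself are called own reads in what follows, and results are also given with the reads of the copies added to their gene.

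**Figure D1:**
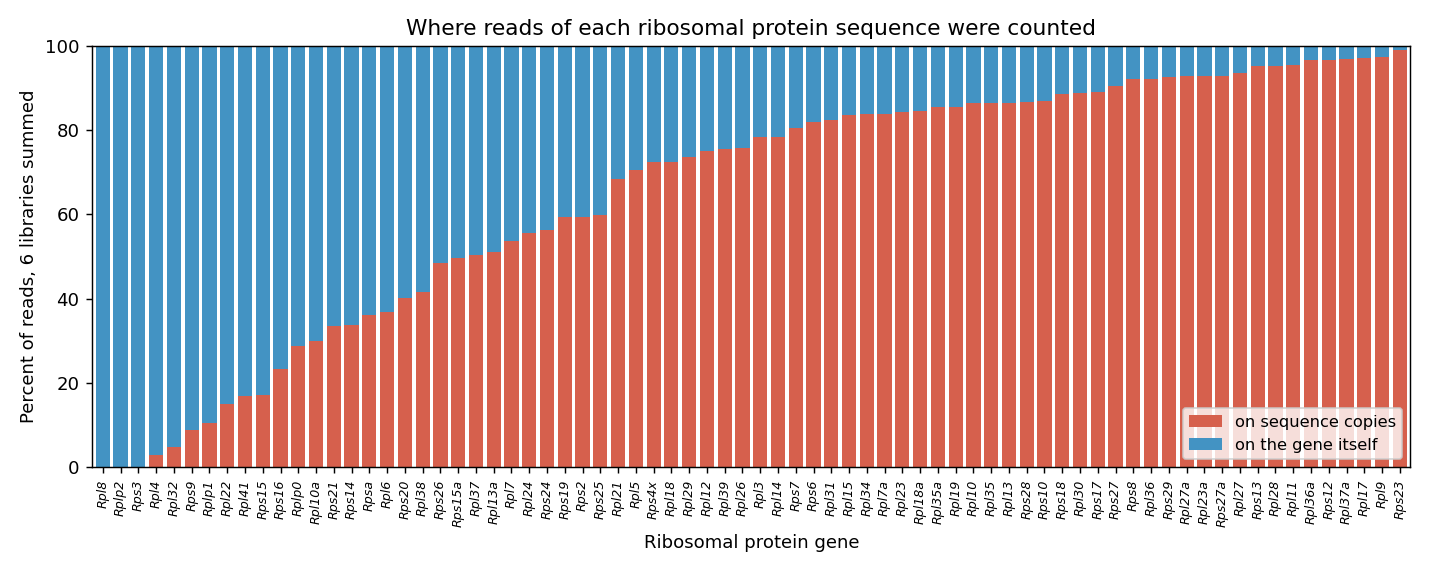
Each bar is 1 of the small and large subunit genes, split into the percent of its reads counted on the gene itself (blue) and on its sequence copies elsewhere in the genome (red), summed over 6 libraries. The 74 genes drawn run from Rpl8, Rplp2 and Rps3, with 0, to Rps23, with 98.9% on copies.

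The counts of a library summed to 11221070, 26058391 and 19460211 in eGFPhi replicates 1 to 3 and to 11706873, 14333582 and 18151852 in eGFPlo replicates 1 to 3. Levels are CPM, that is, counts relative to the library size after edgeR's TMM scaling. Both groups carried the label LT-HSC but differed in defining markers. Of 11 HSC markers 10 were higher in eGFPhi and 0 lower, and their summed level was 2221 to 2431 CPM in eGFPhi and 1005 to 1036 CPM in eGFPlo. All 12 granulocyte-monocyte progenitor markers were lower in eGFPhi (summed, 901 to 1116 against 6440 to 6572 CPM in eGFPlo), and so were all 10 B cell markers (736 to 760 against 6165 to 6260 CPM) and all 12 proliferation markers (1459 to 1482 against 3302 to 3349 CPM). The B cell gene Vpreb3 was at 0 in eGFPhi. Fewer cells of a type and less RNA per cell cannot be told apart in such bulk samples. These marker differences move with every comparison below, and their part in the ribosomal protein values was not tested.

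The summed level of the family was almost the same in both groups. It was 17554, 17814 and 17683 CPM in eGFPhi and 17689, 17910 and 18073 CPM in eGFPlo, means of 17684 ± 130 CPM in eGFPhi and 17891 ± 193 CPM in eGFPlo (SD, n = 3 each). The groups overlapped, and the log2 ratio of eGFPhi over eGFPlo was -0.0168. Its sign was not fixed: it was -0.0197 with RLE factors, 0.0082 with upper-quartile factors and 0.0075 with copies added. The 30 small subunit genes summed to 6478 ± 57.7 CPM in eGFPhi and 6439 ± 70.9 CPM in eGFPlo, the 46 large subunit genes to 11004 ± 113 CPM in eGFPhi and 11279 ± 149 CPM in eGFPlo. On own reads the ratio of the small to the large sum was 0.588, 0.582 and 0.597 in eGFPhi and 0.571, 0.578 and 0.564 in eGFPlo. Every eGFPhi library thus lay above every eGFPlo library. This ratio was not computed with copies added, so the difference holds for own reads only. Reads on the copies summed to 30293 ± 231 CPM in eGFPhi and 29838 ± 302 CPM in eGFPlo.

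Within that sum, single genes moved in both directions by small amounts. The design sets LT-HSCs with much Trim47 reporter signal against those with little. Of the 81 genes 80 passed the filter on low counts, the exception being Rpl3l. In edgeR's quasi-likelihood test, with Benjamini-Hochberg adjustment over all 18081 genes tested and a threshold of 0.05, 18 were higher and 21 lower in eGFPhi and 41 did not pass. The background is high: 64.0% of all tested genes passed, 32.3% higher and 31.7% lower, against 48.8% of the 80. The groups did not overlap for 46 of the 80 (23 in each direction), where 69.8% of all genes did not. The median log2 fold change of the 80 was -0.00443 and that of all tested genes 0.00346. Their spread was narrower, with an SD of 0.284 on the log2 scale against 1.66 for all genes, and 8 of 80 changed by at least 0.5 in either direction, while 45.5% of all genes did. A narrow spread was not particular to them. The 209 genes of the translation lists described below had an SD of 0.344, and 25 of them changed by at least 0.5. The test rests on a small spread between libraries, which edgeR put at 0.0941 as its common biological coefficient of variation. When 0.2 was assumed in its place, 2 were higher and 4 lower (background 36.6%), and with a required fold of 1.2, 6 and 7 (background 44.8%).

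**Figure D2:**
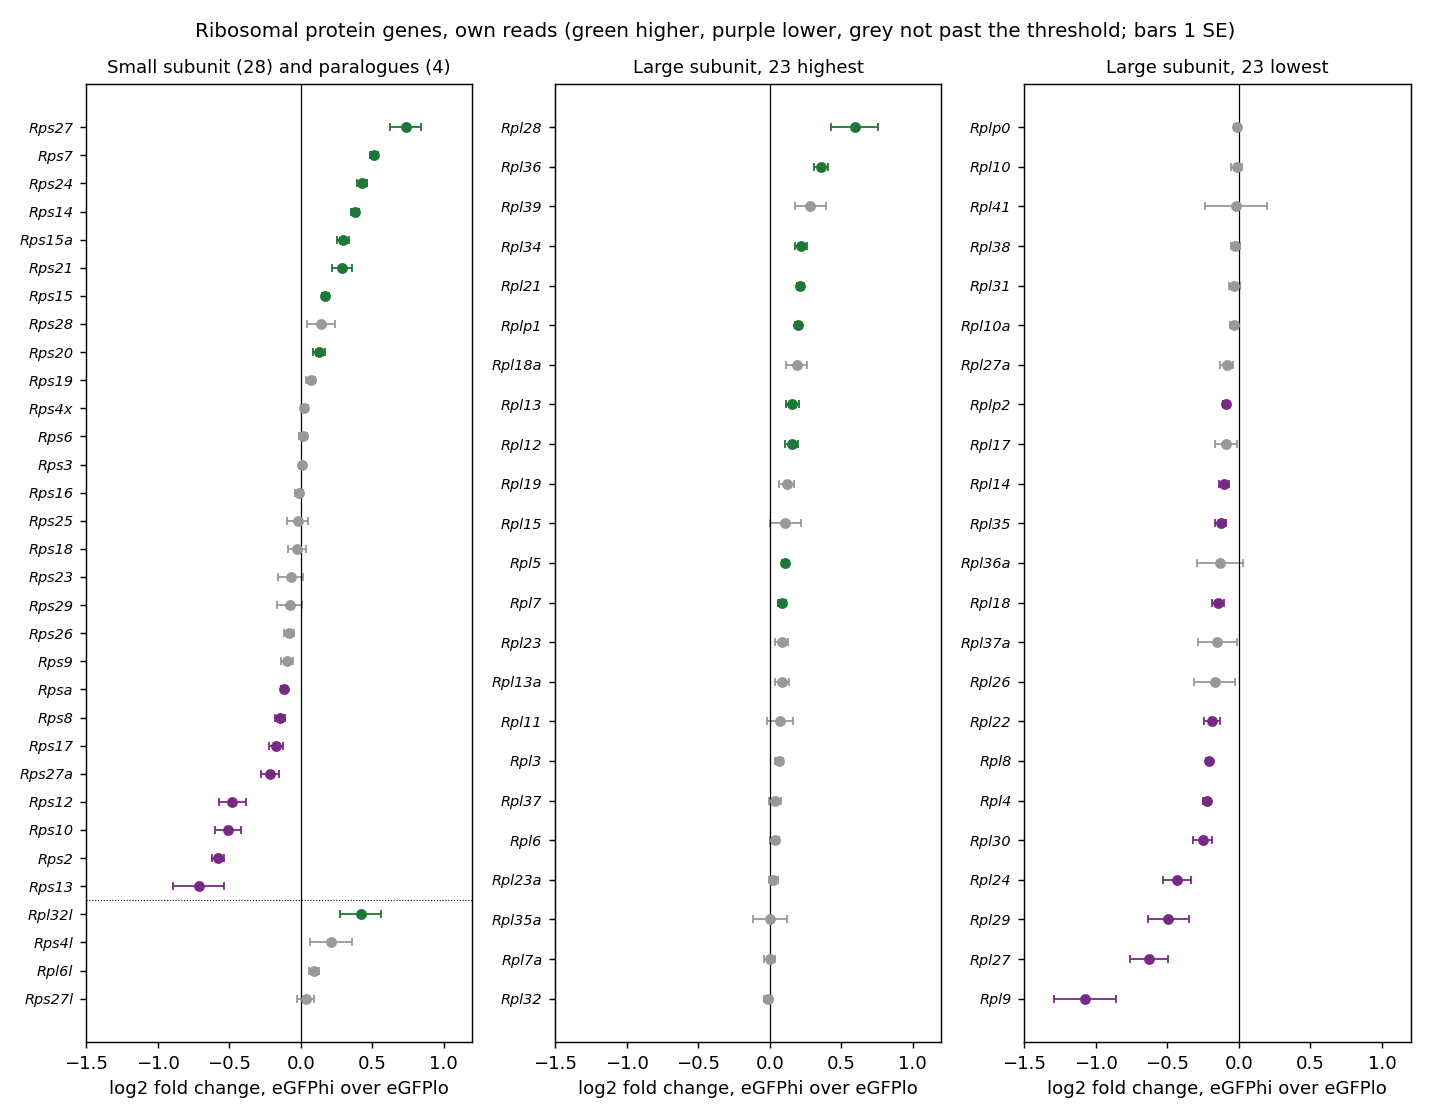
Log2 fold change of eGFPhi over eGFPlo with 1 SE for 78 of the tested genes, own reads, 3 libraries per group. Green genes were higher and purple genes lower at an adjusted p under 0.05, grey genes did not pass, and values run between -1.07 (Rpl9) and 0.73 (Rps27).

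Among the 30 small subunit genes 8 were higher and 9 lower in eGFPhi (56.7% called, background 64.0%), and their median log2 fold change was -0.015. The higher side was headed by Rps27, a zinc-finger protein, Rps7, which takes part in processing the small subunit's rRNA, Rps24, a gene mutated in Diamond-Blackfan anaemia in humans, and Rps14, whose loss in humans underlies the anaemia of the 5q- syndrome. Rps7 (ENSMUSG00000061477, chromosome 12) had 164, 165 and 171 CPM in eGFPhi and 117, 119 and 116 CPM in eGFPlo. The groups lay far apart for their spread, with a log2 fold change of 0.51 (SE 0.03, adjusted p = 5.95e-06 in edgeR's test). Rps24 (ENSMUSG00000025290, chromosome 14) had 494, 469 and 499 CPM in eGFPhi and 376, 352 and 359 CPM in eGFPlo, a log2 fold change of 0.43 (SE 0.03, adjusted p = 2.8e-05).

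Rps14 had 216, 219 and 221 CPM in eGFPhi and 166, 171 and 167 CPM in eGFPlo, a log2 fold change of 0.38 (SE 0.03, adjusted p = 1.31e-05). Rps27 (ENSMUSG00000090733, chromosome 3) was read at 18.6, 16.5 and 15.5 CPM in eGFPhi and 11.1, 10.2 and 9.14 CPM in eGFPlo, a log2 fold change of 0.73 (SE 0.11, adjusted p = 0.000745). In all of them the lowest eGFPhi library was above the highest eGFPlo library. Rps15a, a protein of the small subunit's body, followed with 145 ± 6.57 CPM in eGFPhi and 118 ± 3.65 CPM in eGFPlo (log2 fold change 0.30, adjusted p = 0.000599).

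On the lower side stood Rps2, which lines the entry channel of the mRNA and is the best known substrate of the arginine methyltransferase Prmt3. Rps2 (ENSMUSG00000044533, chromosome 17) had 174, 185 and 193 CPM in eGFPhi and 272, 285 and 268 CPM in eGFPlo. The groups did not overlap, and the log2 fold change was -0.58 (SE 0.04, adjusted p = 2.23e-05). Rps2 shares exon positions with Snhg9 on the other strand, and a read from either is separated only by its strand, whose use in the counting is not given. Rps13, which forms a bridge between the subunits, was read at only 8.01, 8.95 and 9.86 CPM in eGFPhi and 11.1, 18.03 and 14.9 CPM in eGFPlo (log2 fold change -0.71, SE 0.18, adjusted p = 0.00883).

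Rps10, a protein of the head that is ubiquitinated when ribosomes collide, was lower at 27.98 ± 2.61 CPM in eGFPhi and 39.5 ± 3.51 CPM in eGFPlo, a log2 fold change of -0.51 (adjusted p = 0.00191). It shares exons on the same strand with the read-through gene RPS10-NUDT3. Rps12 had 14.5 ± 1.55 CPM in eGFPhi and 20.3 ± 0.991 CPM in eGFPlo (-0.48, adjusted p = 0.00329). Rpsa, also known as the laminin receptor, was slightly lower, with 1172, 1209 and 1199 CPM in eGFPhi and 1269, 1312 and 1305 CPM in eGFPlo (-0.12, SE 0.02, adjusted p = 0.00112). For 13 of the 30 the difference did not pass on own reads. They include Rps6, the substrate of S6 kinase, at 276 ± 3.29 CPM in eGFPhi and 273 ± 8.51 CPM in eGFPlo (adjusted p = 0.615). Rps19, the most often mutated gene in Diamond-Blackfan anaemia, was at 178 ± 0.812 CPM in eGFPhi and 170 ± 5.43 CPM in eGFPlo (adjusted p = 0.0783). Copies held 81.9% of the reads of Rps6 and 59.3% of those of Rps19. With copies added both passed as higher in eGFPhi, Rps6 at 0.09 (adjusted p = 0.0358) and Rps19 at 0.07 (adjusted p = 0.0195). Both were chosen for their role after their values were seen.

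Among the 46 large subunit genes 9 were higher and 12 lower in eGFPhi (45.7% called, background 64.0%), and their median log2 fold change was -0.0128. Rpl4 and Rpl8, abundant proteins near the exit tunnel and the catalytic centre, were lower. Rpl4 (ENSMUSG00000032399, chromosome 9) had 1442, 1459 and 1380 CPM in eGFPhi and 1694, 1641 and 1669 CPM in eGFPlo, a log2 fold change of -0.23 (SE 0.02, adjusted p = 0.000116). Rpl8, which supports the peptidyl transferase centre, had 922, 943 and 923 CPM in eGFPhi and 1080, 1063 and 1082 CPM in eGFPlo, a log2 fold change of -0.21 (SE 0.02, adjusted p = 2.64e-05). The groups did not overlap in either gene. By the criteria used Rpl8 has no sequence copy and Rpl4 has 1, with 2.97% of its reads.

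The largest fall was read for Rpl9, a protein at the base of the stalk region, with 4.81, 5.61 and 3.596 CPM in eGFPhi and 8.31, 12.4 and 8.86 CPM in eGFPlo (log2 fold change -1.07, SE 0.22, adjusted p = 0.0033). These are the lowest own-read levels per coding length of the 76 genes, and 97.3% of the reads lay on copies. Rpl27 had 11.2 ± 1.87 CPM in eGFPhi and 17.2 ± 1.01 CPM in eGFPlo (-0.63, adjusted p = 0.00425). Rpl24, mutated in the Belly spot and tail mouse, had 65.2 ± 7.99 CPM in eGFPhi and 87.7 ± 7.82 CPM in eGFPlo (-0.43, adjusted p = 0.00528), and shares exons with Gm28037 on the same strand. Rpl29, which is dispensable in mice, had 74.3, 73.7 and 72.1 CPM in eGFPhi and a wide 123, 109 and 79.2 CPM in eGFPlo (-0.49, adjusted p = 0.0167). Without eGFPlo replicate 2 that call was lost (adjusted p = 0.0522). Rpl30 had 26.4 ± 0.443 CPM in eGFPhi and 31.3 ± 2.15 CPM in eGFPlo (-0.25, adjusted p = 0.0112).

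On the higher side, Rpl28 was read at 21.4, 26.4 and 23.02 CPM in eGFPhi and 16.1, 11.95 and 18.9 CPM in eGFPlo (log2 fold change 0.59, SE 0.16, adjusted p = 0.0149), a call that was lost without eGFPhi replicate 2 (adjusted p = 0.0512). Its exons overlap Ube2s on the other strand. Rpl36 had 36.9, 36.5 and 36.6 CPM in eGFPhi and 28.9, 28.9 and 28.2 CPM in eGFPlo, tight groups with a log2 fold change of 0.36 (SE 0.05, adjusted p = 0.000407). Rpl21 had 327 ± 8.45 CPM in eGFPhi and 282 ± 0.605 CPM in eGFPlo (0.21, adjusted p = 0.000214), and Rpl34 had 62.7 ± 1.29 CPM in eGFPhi and 53.8 ± 1.69 CPM in eGFPlo (0.22, adjusted p = 0.00269). Rpl39, a small protein at the end of the exit tunnel, had 34.2 ± 1.87 CPM in eGFPhi and 28.3 ± 4.39 CPM in eGFPlo and missed the threshold (0.28, adjusted p = 0.0529). It passed with upper-quartile factors (adjusted p = 0.0399), a filter of 5 CPM in 3 libraries (0.0443), limma-voom (0.0274), scaling to the family (0.0476) and without eGFPlo replicate 1 (0.00914). Rpl5 and Rpl11 bind the 5S rRNA and, when free, the p53 regulator Mdm2. On own reads Rpl5 was 516 ± 8.39 CPM in eGFPhi and 479 ± 9.80 CPM in eGFPlo (0.11, adjusted p = 0.00459), and Rpl11 23.9 ± 1.88 CPM in eGFPhi and 22.9 ± 2.04 CPM in eGFPlo (0.07, adjusted p = 0.512). Copies held 95.5% of the reads of Rpl11. With copies added Rpl11 was lower, at 508 ± 13.5 CPM in eGFPhi and 541 ± 6.63 CPM in eGFPlo (-0.09, adjusted p = 0.0125). This pair was chosen for its role after its values were seen.

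The stalk of the large subunit recruits the elongation factors, and its 3 proteins did not move alike. Rplp1 was higher, with 776, 782 and 787 CPM in eGFPhi and 675, 682 and 691 CPM in eGFPlo (log2 fold change 0.20, SE 0.02, adjusted p = 4.19e-05). Its partner Rplp2 was slightly lower, with 804, 821 and 825 CPM in eGFPhi and 846, 888 and 873 CPM in eGFPlo (-0.09, SE 0.02, adjusted p = 0.00917). Rplp0, the base on which both sit, had 843, 857 and 869 CPM in eGFPhi and 858, 870 and 865 CPM in eGFPlo, overlapping groups (-0.01, SE 0.02, adjusted p = 0.527). Per kilobase of coding sequence Rplp2 and Rplp1 were among the most abundant genes by own reads, at 2347 and 2266 CPM per kb in eGFPhi and 2497 and 1979 CPM per kb in eGFPlo. Without a filter on low counts the call for Rplp2 was lost (adjusted p = 0.0665).

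The 5 paralogues are of different kinds. Rpl6l and Rpl32l are annotated as processed pseudogenes and Rps4l as a transcribed processed pseudogene, whereas Rps27l and Rpl3l are protein coding. Rpl6l was 98.7% identical to Rpl6 and Rpl32l 96.0% identical to Rpl32, so both could share reads with their parent. Rpl32l had 91.9, 82.7 and 75.4 CPM in eGFPhi and 72.5, 48.1 and 66.2 CPM in eGFPlo, a log2 fold change of 0.42 (SE 0.14, adjusted p = 0.035), while Rpl32 itself had 496 ± 2.46 CPM in eGFPhi and 500 ± 20.5 CPM in eGFPlo (-0.01, adjusted p = 0.744). The call for Rpl32l was lost without eGFPhi replicate 1 (adjusted p = 0.0959), eGFPhi replicate 2 (adjusted p = 0.0719) or eGFPlo replicate 3 (adjusted p = 0.0536).

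Rpl6l had 87.2 ± 1.69 CPM in eGFPhi and 81.8 ± 1.75 CPM in eGFPlo and just missed the threshold (log2 fold change 0.09, adjusted p = 0.0504). It passed with upper-quartile factors (adjusted p = 0.0191), a filter of 5 CPM in 3 libraries (0.0229), log2 FPKM plus 1 (0.0156) and scaling to the family (0.0271). Rps4l, 79.8% identical to Rps4x, had 6.19 ± 0.737 CPM in eGFPhi and 5.35 ± 0.713 CPM in eGFPlo (0.21, adjusted p = 0.249). Rps27l, a target of p53, had 24.8, 24.9 and 24.7 CPM in eGFPhi and 23.04, 24.7 and 24.8 CPM in eGFPlo (0.04, SE 0.06, adjusted p = 0.655). Rpl3l, which replaces Rpl3 in striated muscle, was near 0: it had 0 reads in the 3 eGFPhi libraries and 25 in the 3 eGFPlo libraries, that is, at most 0.0529 CPM (the limit that a count of 0 allows, 3 counts over the group) against 0.568 CPM. This is at least 10.7-fold lower in eGFPhi, for counting error only.

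Adding the reads of the copies to their gene, an alternative chosen after the data were seen, narrowed the differences. The log2 fold changes of the 80 genes then ran between -0.50 and 0.42, with an SD of 0.152 and 0 genes at 0.5 or more. By the same edgeR test 29 were higher and 21 lower, together 62.5% (background 64.7%, 32.7% higher and 32.0% lower). Of the 39 genes called on own reads 32 were called in the same direction, 5 no longer passed and 2 passed in the opposite direction, and 16 were called anew. With copies added the small subunit had 14 higher and 9 lower and the large subunit 14 and 12.

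Rps14 and Rps2 kept nearly their whole difference. Rps14, whose 2 copies held 33.7% of its reads, had 332, 333 and 337 CPM with copies in eGFPhi and 249, 249 and 248 CPM in eGFPlo, a log2 fold change of 0.42 (SE 0.02, adjusted p = 2.06e-06). Rps2, with 46 copies, had 459, 467 and 479 CPM in eGFPhi and 651, 676 and 656 CPM in eGFPlo, 1.41-fold lower (log2 fold change -0.50, SE 0.02, adjusted p = 2.25e-06). Rps24 (0.27, adjusted p = 0.000413), Rps7 (0.23, adjusted p = 1.5e-05) and Rps27 (0.25, adjusted p = 0.00352) stayed higher. Their differences shrank from 0.43, 0.51 and 0.73 on own reads. Rpl8 was at -0.21 by either count and Rpl4 at -0.23 on own reads and -0.21 with copies.

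Differences of further genes reversed, shrank or were lost. Rpl9 turned from lower to higher, with 258, 270 and 264 CPM in eGFPhi and 248, 246 and 253 CPM in eGFPlo (0.09, SE 0.03, adjusted p = 0.0212). Rps13 did likewise, with 260, 251 and 255 CPM in eGFPhi and 224, 233 and 228 CPM in eGFPlo (0.16, SE 0.03, adjusted p = 0.00112). Rpl28 was at -0.04 (adjusted p = 0.131) and Rpl30 at 0.04 (adjusted p = 0.202). Rpl27 shrank to -0.09 (adjusted p = 0.0215), with 206, 201 and 208 CPM in eGFPhi and 216, 224 and 215 CPM in eGFPlo. Rps12 shrank to -0.10 (adjusted p = 0.00255), Rpl29 to -0.16 (adjusted p = 0.0165), Rpl24 to -0.16 (adjusted p = 0.0339), Rpl36 to 0.21 (adjusted p = 0.000151), Rps15a to 0.16 (adjusted p = 0.00119) and Rpl5 to 0.04 (adjusted p = 0.022). The calls for Rps10 (adjusted p = 0.0581) and Rpl34 (adjusted p = 0.06) were lost. On own reads the 17 genes with at least 90% of their reads on copies spanned -1.07 to 0.73 in log2 fold change. The 7 genes under 10% spanned -0.23 to 0.10, with 0 higher and 3 lower. These 7 include Rpl32, for which the reads on Rpl32l are not counted as copies.

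**Figure D3:**
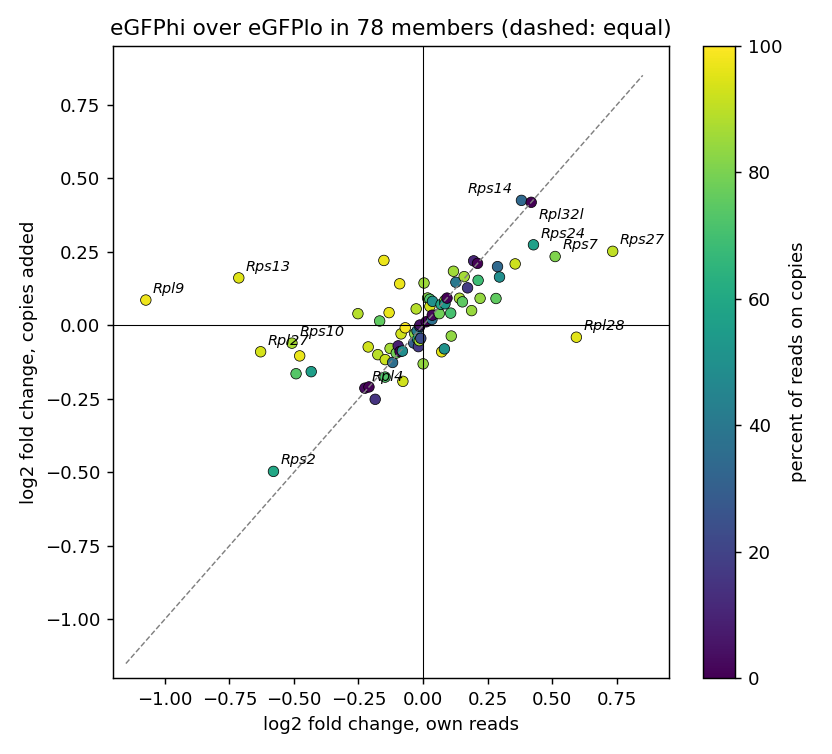
Log2 fold change of eGFPhi over eGFPlo for 78 genes from own reads (horizontal) and with the reads of sequence copies added (vertical), coloured by the percent of reads on copies. Rps14, Rps2 and Rpl4 lie near the dashed line of equal values, whereas Rpl9, Rps13 and Rpl28, with over 95% on copies, lie near 0 on the vertical axis.

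**Figure D4:**
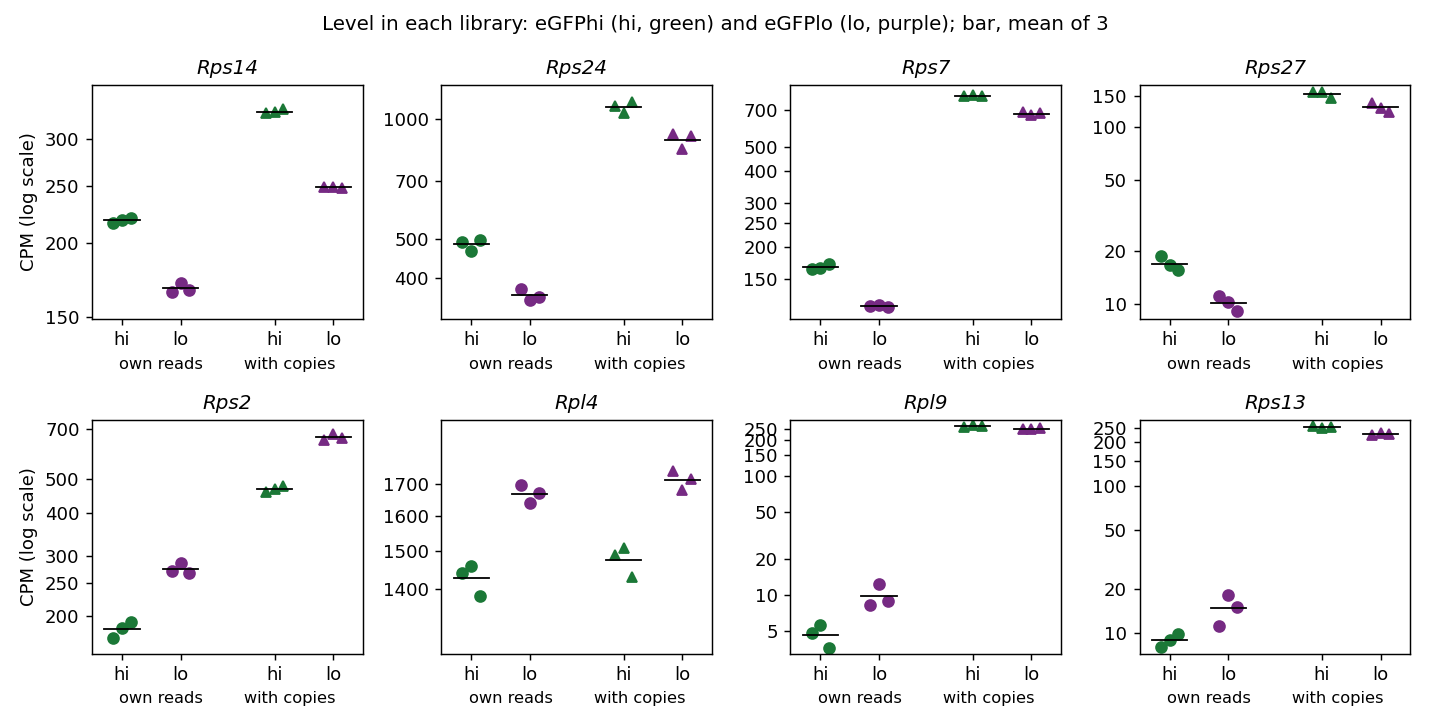
CPM on a log axis in each of 3 eGFPhi (green) and 3 eGFPlo (purple) libraries for 8 genes, from own reads (circles) and with copies added (triangles), with the mean as a bar. Rps14, Rps24, Rps7 and Rps27 are higher and Rps2 and Rpl4 lower in eGFPhi by either count, while Rpl9 and Rps13 are lower by own reads and higher with copies.

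Adding the copies also brought the genes' levels closer to each other. Per kilobase of coding sequence, the mean level of the 76 small and large subunit genes ran from 12.6 CPM per kb (Rpl9) to 2422 CPM per kb (Rplp2) by own reads, a 193-fold range with a median of 251.3. With copies added it ran from 356 (Rpl24) to 3262 CPM per kb (Rpl23a), a 9.15-fold range with a median of 1157. The SD of these levels on the log2 scale was 1.70 by own reads and 0.752 with copies.

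Replicates of a group agreed closely for most of the 80 genes. The median coefficient of variation was 3.05% in eGFPhi and 3.67% in eGFPlo, and it exceeded 20% in 3 genes in eGFPhi and 7 in eGFPlo. Rpl41, the shortest of the 76 coding sequences with 78 bases, varied most, at 122, 197 and 185 CPM in eGFPhi and 135, 220 and 157 CPM in eGFPlo (coefficients of variation of 23.9% in eGFPhi and 25.8% in eGFPlo). Rpl26 was steady at 291, 304 and 297 CPM in eGFPhi but had 285, 290 and 426 CPM in eGFPlo, with replicate 3 apart from the others. Neither gene was called, and both were named after their values were seen.

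The promoters share letters that the naming rule did not use. RefSeq promoters (GRCm38.p6) were matched for 56 of the 76 genes and are compared with those of 27025 genes. The tract CTTTNC lay within 20 bases of the transcription start on the gene's strand in 14 of the 56 (25%), against 5.67% of all genes. The ETS-family box CCGGAAG lay on either strand in the window from 250 bases before to 50 after the start in 23 of the 56 (41.1%, against 9.93%), and the YY1 box AAGATGG in 9 (16.1%, against 7.28%). A match is a description of letters, not a binding site. The window from 30 bases before to 20 after the start is shown for Rps7, Rps27, Rps2 and Rpl4, a pair from each direction whose difference passed with and without the copies. Capitals mark the tract within 20 bases of the start. A match further from the start in Rps7 and an overlapping match in Rpl4 are left in lower case.

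Rps7: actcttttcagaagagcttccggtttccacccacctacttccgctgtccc

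Rps27: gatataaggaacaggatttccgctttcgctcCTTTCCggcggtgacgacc

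Rps2: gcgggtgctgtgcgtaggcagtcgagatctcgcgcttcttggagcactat

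Rpl4: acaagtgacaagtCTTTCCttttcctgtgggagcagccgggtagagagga

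These windows lie at chr12:28635934-28635983 on the minus strand for Rps7, chr3:90213629-90213678 on the minus strand for Rps27, chr17:24720033-24720082 on the plus strand for Rps2 and chr9:64173357-64173406 on the plus strand for Rpl4. Rps7 and Rps27 were higher and Rps2 and Rpl4 lower in eGFPhi, and the tract so defined was found in Rps27 and Rpl4 and not in Rps7 and Rps2. Among genes with the tract 4 were higher and 5 lower on own reads, with a median log2 fold change of -0.00988. Among the 42 with a promoter but no tract 7 were higher and 9 lower, with a median of -0.014. Of all tested genes 32.3% were higher and 31.7% lower.

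Genes were also described by position and structure, which the naming rule did not use. Between the start and end of 29 of the 76 genes, on the same strand, lie 56 small nucleolar RNA genes, whose products guide the modification of rRNA. Of these 29 host genes 5 were higher and 9 lower (median log2 fold change 0.000122), and of the 47 others 12 and 12 (median -0.021). Rpl4 hosts 5 of them. The 81 genes lie on 19 chromosomes, 14 of them on chromosome 7, where 2 were higher and 5 lower. For these groups the background is 32.3% higher and 31.7% lower among all tested genes. The 4 on the X chromosome (log2 fold changes of -0.13 to 0.28) were not called. Exons of 16 genes overlap another gene on the other strand and those of 6 a gene on the same strand, and their counts are uncertain to that extent.

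Genes of ribosomal proteins, their relatives and binding partners that the naming rule does not catch also moved in both directions. Of 12 tested 7 were higher and 3 lower in eGFPhi (83.3% called, background 64.0%), and the median log2 fold change was 0.125. Fau encodes a ribosomal protein fused to a ubiquitin-like protein. Fau had 372, 384 and 375 CPM in eGFPhi and 313, 342 and 312 CPM in eGFPlo (0.23, SE 0.04, adjusted p = 0.00125). Rps27rt, the identical copy of Rps27 shown above, had 135, 137 and 127 CPM in eGFPhi and 122, 113 and 109 CPM in eGFPlo (0.22, SE 0.05, adjusted p = 0.00662), several times the own-read level of Rps27.

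Among paralogues with other names, Rpl22l1 was higher at 0.31 (adjusted p = 0.00194), while its parent Rpl22, known for its role in lymphocyte development in mice, was lower at 283 ± 22.9 CPM in eGFPhi and 322 ± 9.83 CPM in eGFPlo (-0.19, adjusted p = 0.0211). Rpl36al was lower at -0.44 (adjusted p = 0.000359), Rpl7l1 at -0.24 (adjusted p = 0.00813) and Rps19bp1, which is not a ribosomal protein but binds Rps19, at -0.38 (adjusted p = 0.0258). The call for Rps19bp1 was lost with DESeq2 (adjusted p = 0.0535) and without eGFPhi replicate 3 (adjusted p = 0.0806), eGFPlo replicate 1 (adjusted p = 0.0795) or eGFPlo replicate 3 (adjusted p = 0.0567). Rack1, a scaffold on the small subunit, was higher by 0.10 (adjusted p = 0.0137), as were Rps3a2 at 0.15 (adjusted p = 0.0135) and Rps3a3 at 0.17 (adjusted p = 0.000236). Rps3a1 averaged 239.9 CPM in eGFPhi and 238.5 CPM in eGFPlo (0.01, adjusted p = 0.841), and Rsl24d1 did not pass (-0.09, adjusted p = 0.836).

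Among the factors that make and drive ribosomes more genes were lower than higher in eGFPhi. Across 7 lists, the 12 genes above included, 209 genes were tested, of which 29 were higher and 118 lower in eGFPhi (70.3% called, background 64.0%). Their median log2 fold change was -0.164. The difference between these lists and the 80 genes was not tested. Proliferation markers were lower in eGFPhi as well, at a summed 1467 ± 13.3 CPM against 3319 ± 25.6 CPM in eGFPlo, and their part in these lists was not tested. When a coefficient of 0.2 was assumed, 3 of the 209 were higher and 11 lower, where 36.6% of all genes passed.

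Of 89 ribosome biogenesis factors 11 were higher and 52 lower (70.8% called, background 64.0%, median -0.199). Ncl, the nucleolar protein nucleolin, had 2637, 2613 and 2605 CPM in eGFPhi and 3219, 3170 and 3227 CPM in eGFPlo, a log2 fold change of -0.29 (SE 0.01, adjusted p = 9.93e-07). Npm1, which carries ribosomal proteins in the nucleolus, had 311, 299 and 303 CPM in eGFPhi and 402, 399 and 409 CPM in eGFPlo (-0.41, SE 0.02, adjusted p = 5.34e-06). Nop56 (-0.45, adjusted p = 1.84e-05) and Dkc1 (-0.51, adjusted p = 1.25e-05), core proteins of the methylation and pseudouridylation guides, were also lower. Of 15 tested genes of RNA polymerase I and rDNA transcription 0 were higher and 9 lower (60% called, background 64.0%, median -0.193). The lower genes include Ttf1, a terminator of rRNA transcription, at -0.52 (adjusted p = 0.000516), Znrd1 at -0.48 (adjusted p = 0.00206), Polr1b at -0.25 (adjusted p = 0.00222) and Taf1d at -0.22 (adjusted p = 0.000515).

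Of 38 initiation factors 1 was higher and 26 lower (71.1% called, background 64.0%, median -0.168). Eif3b, a scaffold subunit of the eIF3 complex, had 256, 269 and 264 CPM in eGFPhi and 370, 368 and 371 CPM in eGFPlo (-0.49, SE 0.02, adjusted p = 2.6e-06), and the eIF3 subunits Eif3g (-0.47, adjusted p = 1.47e-05), Eif3c (-0.34, adjusted p = 1.84e-05) and Eif3a (-0.24, adjusted p = 9.53e-06) were lower with it. Of 15 elongation and termination factors 4 were higher and 9 lower (86.7% called, background 64.0%, median -0.171). The pair of them with the most reads was higher: Eef2, which moves the ribosome along the mRNA, averaged 2334 CPM in eGFPhi and 2091 CPM in eGFPlo (0.16, adjusted p = 9.3e-05), and Eef1a1, which delivers aminoacyl-tRNA, 2194 CPM in eGFPhi and 1995 CPM in eGFPlo (0.14, adjusted p = 0.000365). The list's summed level was 6489 ± 25.8 CPM in eGFPhi and 6417 ± 29.5 CPM in eGFPlo. Eif5a, which helps stalled ribosomes forward, was lower at 378 CPM in eGFPhi and 523 CPM in eGFPlo on average (-0.47, adjusted p = 7.21e-06), whereas its homologue Eif5a2 was higher at 11.9 CPM in eGFPhi and 5.07 CPM in eGFPlo (1.23, adjusted p = 8.66e-05). The recycling factor Abce1 (-0.40, adjusted p = 4.53e-05) and the release factor Gspt1 (-0.26, adjusted p = 7.84e-05) were lower.

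Of 18 chaperones and importers of ribosomal proteins 3 were higher and 8 lower (61.1% called, background 64.0%, median -0.11). The importins Ipo7 (-0.59, adjusted p = 4e-06), Ipo5 (-0.34, adjusted p = 2.56e-05) and Kpnb1 (-0.20, adjusted p = 0.000155) were lower, and Ipo4 was higher (0.54, adjusted p = 9.94e-05). Of 22 regulators of mTORC1 and TOP mRNAs 3 were higher and 11 lower (63.6% called, background 64.0%, median -0.0884). Larp1, which binds the TOP motif and stabilises and represses these mRNAs, had 358, 360 and 361 CPM in eGFPhi and 447, 458 and 463 CPM in eGFPlo (-0.34, SE 0.02, adjusted p = 7.48e-06). Larp4, a poly(A)-binding relative, was lower at -0.87 (adjusted p = 1.7e-06), the translation repressor Eif4ebp2 at -0.37 (adjusted p = 2.34e-05) and Tbc1d7, the third subunit of the TSC complex that restrains mTORC1, at -2.91 (adjusted p = 5.33e-06).

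**Figure D5:**
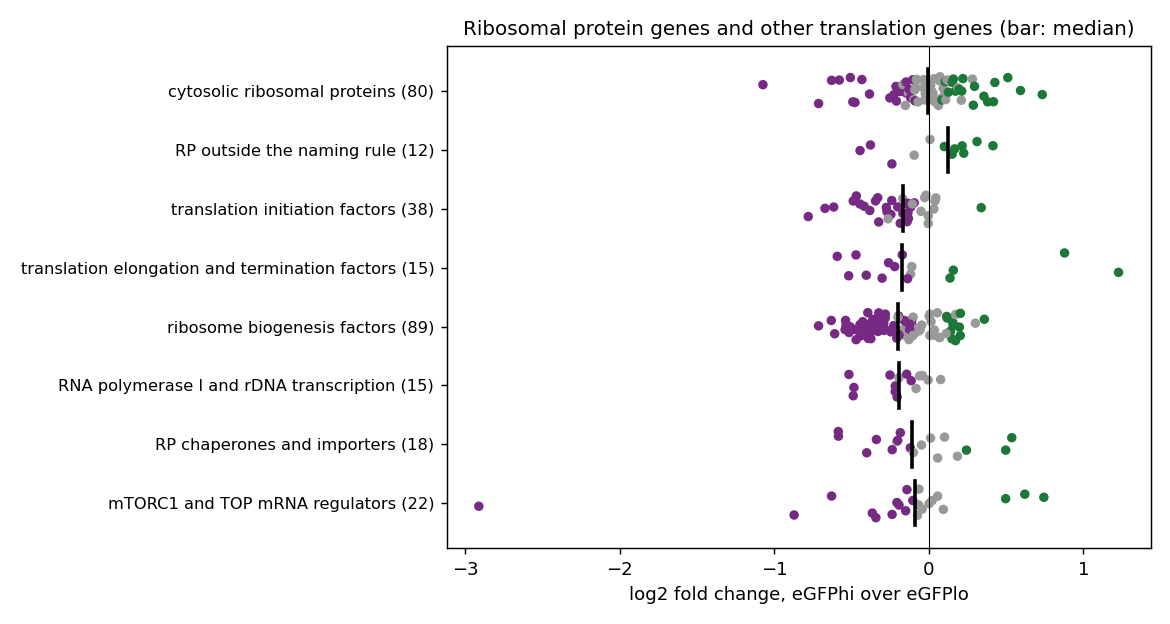
Log2 fold change of eGFPhi over eGFPlo, 1 point per tested gene, for the 80 ribosomal protein genes (top row) and 7 lists of other translation genes, with the median as a bar and green, purple and grey for higher, lower and not called. The median is near 0 for the ribosomal protein genes, 0.125 for those outside the naming rule and -0.199 for the biogenesis factors.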

How the data were processed

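Poly(A)-selected RNA (total RNA with an integrity number above 7.0) was made into paired-end stranded libraries and sequenced on a NovaSeq instrument, per the labels' protocols. The deposited table gives read counts and FPKM values computed by the authors, per the file headers. CASAVA 1.8, HISAT2, StringTie and edgeR, and the builds hg38 and GRCm38, are named in the submitters' processing notes, without roles. No source used here gives the counter, its use of strand or its handling of reads that match several genes. All 81 genes have the coordinates of GENCODE M21 (GRCm38).

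Counts were fitted in R 4.3.3 with edgeR 4.0.16 (filterByExpr, minimum count 10 and total 15, TMM, quasi-likelihood F test, group only) over 18081 genes, with Benjamini-Hochberg adjustment. Sequence copies were found by BLAST+ 2.17.0 of each coding sequence against GENCODE M21 transcripts. Each copy went to its best-matching gene, and copies that are not pseudogenes had to be covered over at least 50% of their length. Alternatives were RLE and upper-quartile factors, other filters, DESeq2 1.42.0, limma-voom (limma 3.58.1), a replicate block, each library left out, an assumed coefficient of variation, a minimum fold, scaling to the family, the deposited FPKM as log2 of FPKM plus 1, and added copies.

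The genes and lists were chosen with earlier results of these data known. Named are the paralogues, the 5 highest and 5 lowest fold changes of each subunit, the 3 highest and 3 lowest in mean FPKM, the stalk genes and Rpsa, and from each list up to 4 with the smallest p past the threshold (all of a list of up to 12). Values of a few genes are not reported here. Genes outside this rule were chosen after their values were seen. On simulated data for eGFPhi against eGFPlo (17555 genes) the fit called 100% of genes changed by 1 on the log2 scale. It called 40.5% at -0.5, 66.7% at 0.5, 3.33% at -0.2, 3.23% at 0.2 and 0.0346% of unchanged genes. The simulation changed only 200 genes and gave every gene the common coefficient of variation of 0.0941. In the data 64.0% of tested genes passed, so these rates cannot say how often changes of such sizes were detected there.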

Additional observations from a re-analysis of the deposited data

How the results depend on the processing

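Of 18 higher and 21 lower genes (8 and 9 small subunit, 9 and 12 large subunit), an assumed coefficient of variation of 0.2 left 2 and 4 (small 1 and 2, large 1 and 2). A minimum fold of 1.2 left 6 and 7 (small 4 and 4, large 2 and 3). Added copies gave 29 higher (small 14, large 14), with the log2 fold changes of Rps13 (0.1613), Rpl9 (0.08595), Rpl30 (0.03958) and Rpl28 (-0.04043) reversed in sign. Of the translation genes, 29 higher and 118 lower, the assumed coefficient left 3 and 11. The log2 ratio of the summed level, -0.0168, was 0.0082 with upper-quartile factors and 0.0075 with added copies. From the deposited FPKM, summed as they stand without the log2 of FPKM plus 1, it was 0.0233. The cause was not tested.

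Leaving out each library gave 16 to 18 higher and 15 to 24 lower genes (small 7 to 8 and 7 to 11, large 8 to 10 and 8 to 12), 24 to 28 and 107 to 114 translation genes, and a summed log2 ratio of -0.0263 to -0.0037. Without eGFPhi replicate 1 the ratio was -0.0037. With the replicate block 19 genes were higher and 22 lower (small 8 and 11, large 10 and 11), and 29 and 116 translation genes. Same-numbered libraries did not deviate together (residual correlations -0.0133, 0.000555 and -0.0108). These values cannot show whether such libraries came from the same mice or the same sort, which the sources used here do not give. The other alternatives kept these counts within 1.5 times. Depth limits the genes with few own reads, such as Rpl9 and Rps13.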
